A study of Mus musculus with 20 samples.

Results

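The genes described here are the growth hormone (GH) receptor gene *Ghr*, the insulin-like growth factor 1 gene *Igf1*, its receptor gene *Igf1r* and 6 genes for IGF-binding proteins, *Igfbp2* to *Igfbp7*. They were chosen by symbol, through the Ensembl identifiers of the gene count table, and are 9 of its 46078 genes. All 9 passed the filter on low counts, which 21464 genes passed. TRAP–seq sequences the mRNA on the ribosomes of 1 cell type, here adipocytes of epididymal adipose tissue (epiAT). All 20 mice were AdipoERCre x NuTRAP (background C576BL6 in the labels and C57BL/N in the methods) and had received tamoxifen, which switches on a GFP-tagged ribosomal protein in cells in which the adiponectin promoter drives the inducible Cre. In the short arm, H mice had 12 weeks of high-fat diet (HFD) and C mice a low-fat chow diet, both to 18 weeks of age, while HC mice had 12 weeks of HFD and then 8 weeks of chow for weight loss (WL), to 26 weeks of age, beside CC_s mice kept on chow (n = 3 per group). In the long arm, HH mice had 25 weeks of HFD, to 31 weeks of age, beside CC_l controls on chow, and HHC mice had 25 weeks of HFD and 8 weeks of chow, to 39 weeks of age, beside CCC controls on chow (n = 2 per group). Per the paper's methods, controls had the low-fat chow until the WL period. In that period HC, HHC, CC_s and CCC mice all had a different chow, so CC_s and CCC mice also changed diet. The library names carry a different prefix in each arm, and the labels do not say what it marks. Each obese or WL group was therefore set against lean mice of the same arm and age. Diet duration, age and whatever the prefix marks cannot be told apart between arms.

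GH from the pituitary binds its receptor, and the kinase JAK2 then activates STAT5 proteins, which switch on *Igf1* and the feedback inhibitors *Cish* and *Socs2*. IGF1 signals through IGF1R, an insulin-receptor-like tyrosine kinase, and IGF-binding proteins hold IGFs in the circulation and the tissue and govern how much reaches the receptor. Adipose tissue is a source of IGF1 outside the liver, and mature fat cells carry little IGF1R compared with their precursors. IGFBP7 binds IGFs only weakly and is found in basement membranes and vessel walls.

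Positions are those of GENCODE vM21 on mm10. *Ghr* (ENSMUSG00000055737) lies at chr15:3317760-3583492 on the minus strand, *Igf1* (ENSMUSG00000020053) at chr10:87858265-87937042 on the plus strand and *Igf1r* (ENSMUSG00000005533) at chr7:67952827-68233668 on the plus strand. *Igfbp2* (ENSMUSG00000039323, chr1:72824503-72852474, plus strand) and *Igfbp5* (ENSMUSG00000026185, chr1:72857932-72874884, minus strand) are neighbours that point at each other across 5457 bases. *Igfbp3* (ENSMUSG00000020427) is at chr11:7206086-7213923 on the minus strand, *Igfbp4* (ENSMUSG00000017493) at chr11:99041244-99054392 on the plus strand and *Igfbp6* (ENSMUSG00000023046) at chr15:102144362-102149511 on the plus strand. *Igfbp7* (ENSMUSG00000036256, chr5:77349240-77408041, minus strand) shares 85 exonic bases with *Polr2b* on the opposite strand, and since the strand setting of the counting is not given in the sources used here, reads from those bases cannot be assigned to one of the pair. *Igf1os* lies antisense to *Igf1* but shares no exonic base with it.

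Counts on genes totalled 10710277 to 36738954 per library, so that 3 counts, the limit that a count of 0 allows, stood for 0.0817 to 0.280 CPM (counts scaled to a common library total). All other CPM given here were also scaled with TMM factors, and these limits were not. No member was at 0 in any library. Adipocyte markers were not at 0 in any library, but their summed CPM ran from 19482 (HC replicate 3) to 143156 (C replicate 3). The sum was 30455 and 34892 CPM in HH, below the 70540 and 81160 CPM of CC_l. It was 19482 to 85462 CPM in HC, below the 89872 to 120852 CPM of CC_s. In H and HHC the sum overlapped the controls, and its part in the results was not tested. Markers of other cell types were also measured in the adipocyte pull-down, and whether their RNA came from other cells or from adipocytes was not tested. By the rule for differentially expressed genes given below, 12 of 12 macrophage markers were called higher in HH, 8 in H, 7 in HC and 0 in HHC. That rule called 6.79%, 6.49%, 1.74% and 3.12% of all genes tested in these groups, in either direction. Spermatid or epididymal markers, which do not belong to fat, stood out in 4 libraries. Summed spermatid markers reached 3472 CPM in CC_l replicate 1 and 526 CPM in HC replicate 3, and summed epididymal markers reached 1819 CPM in C replicate 1 and 1222 CPM in H replicate 2, so the counts of called members were also taken without these 4 mice. In bulk RNA, fewer cells of a type and less RNA per cell cannot be told apart.

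Levels in the lean epiAT of the 10 control mice are given as CPM per kb of exon, from most to least abundant. Exon length was that of all annotated exons merged, from 1112 bases (*Igfbp6*) to 16791 (*Igf1r*), so genes are compared only roughly. *Igfbp4* had a median level of 135 CPM per kb and *Ghr* 132 CPM per kb, and *Igfbp4* was above *Ghr* in only 4 of 10 mice, so that their order was not settled. *Igfbp6* followed at a level of 70.9, *Igf1* at 50.8, *Igfbp7* at 46.4 and *Igfbp5* at 33.4 CPM per kb. This order was not settled either. *Ghr* was above *Igfbp6* in 6 of 10 mice, *Igfbp6* above *Igf1* in 7, *Igf1* above *Igfbp7* in 5 and *Igfbp7* above *Igfbp5* in 7. *Igfbp5* was above *Igfbp3* in 10 of 10 mice. *Igfbp3* and *Igfbp2* were far lower, at 4.87 and 4.28 CPM per kb, and *Igfbp3* was above *Igfbp2* in 5 of 10 mice. *Igf1r* was the least abundant, at 0.200 CPM per kb, and lay below *Igfbp2* in 10 of 10 mice. On this scale, the GH receptor and the ligand were thus abundant in these libraries. The receptor for the ligand was scarce but was counted in each library (20 counts in the library with the fewest).

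**Figure D1:**
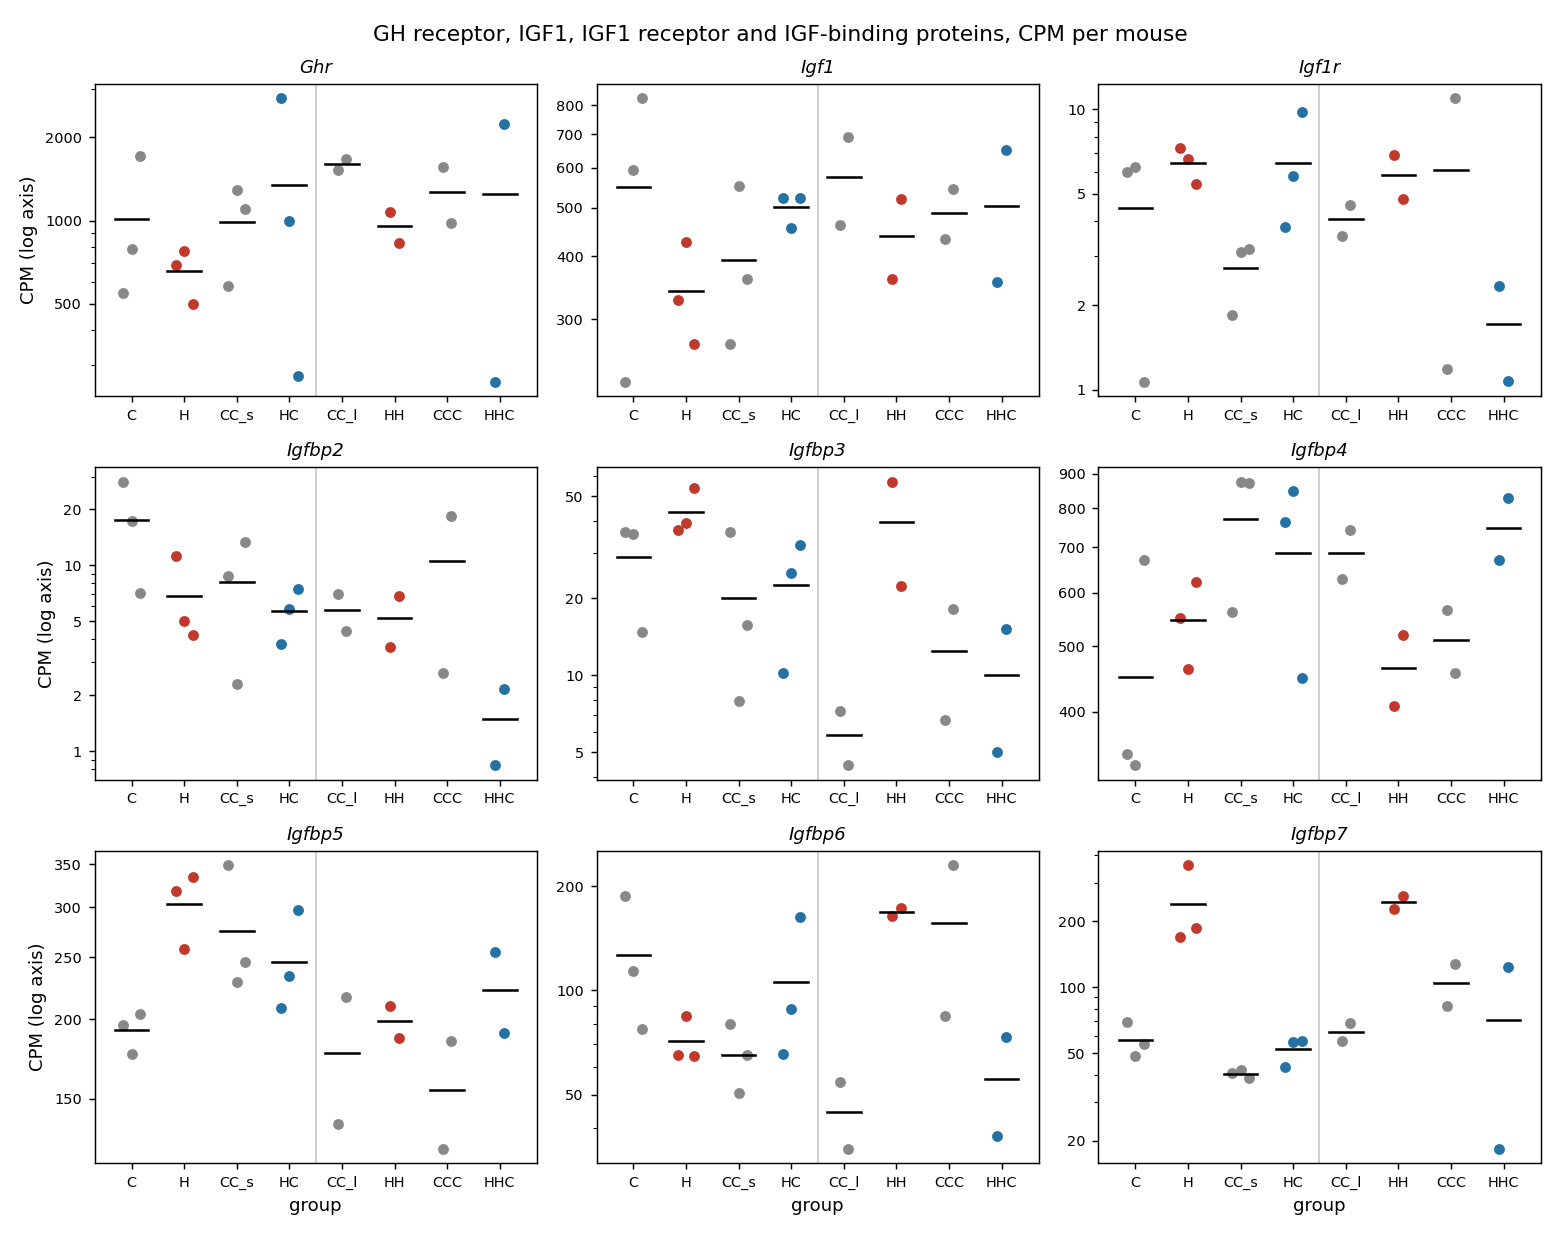
CPM of the 9 members in each mouse (points) on a log axis, by group, with the group mean as a black bar. Grey marks lean controls, red HFD and blue WL, and the grey line divides the short from the long arm. All 5 points of H and HH for *Igfbp7* lie at 170 CPM or above, while the 10 lean mice lie between 38.6 and 127 CPM.

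*Ghr*, the receptor through which GH acts on fat cells, was not called in any comparison. Its level was 545, 788 and 1713 CPM in C and 691, 775 and 499 CPM in H, so H lay within or just under the range of C (log2 fold change (log2FC) −0.63, standard error (SE) 0.75, adjusted p = 0.705). In the long arm it was 1530 and 1673 CPM in CC_l and 1076 and 830 CPM in HH. Both HH mice were below both controls, a log2FC of −0.75 (SE 0.93, adjusted p = 0.713), which the test did not separate from 0. After WL, the spread between mice was wider than any difference between groups. HC mice had 2783, 993 and 274 CPM against 581, 1286 and 1097 CPM in CC_s, and HHC mice had 261 and 2229 CPM against 1557 and 977 CPM in CCC. Among the genes whose log2 CPM followed *Ghr* most closely over the 20 libraries were *Sra1* (Pearson r = 0.94), *Ssbp1* (r = 0.93) and the adipokine gene *Adipoq* (r = 0.93, Spearman rho = 0.96). The libraries share the pull-down, so these correlations describe the libraries and carry no test. *Ghr* itself spanned 10.6-fold over the libraries, and its ratio to *Adipoq* ran from 0.239 to 0.621. *Adipoq* was picked for its likeness to *Ghr* in these same libraries, so a narrow ratio follows from that choice. HC replicate 3, with the lowest summed adipocyte markers, had 493 CPM of *Adipoq* against 7645 CPM in HC replicate 1. HHC replicate 1, with the lowest *Ghr*, had 53819 CPM of summed adipocyte markers, above the 30455 and 34892 CPM of HH. The part of adipocyte content in *Ghr* was not tested.

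*Igf1*, the ligand, was also not called in any comparison and varied 3.67-fold over all 20 mice. It was 225, 594 and 828 CPM in C and 327, 428 and 268 CPM in H (log2FC −0.69, SE 0.46, adjusted p = 0.470). The lowest C mouse lay below all H mice, so the groups overlapped. It was 461 and 693 CPM in CC_l and 360 and 520 CPM in HH (log2FC −0.39, SE 0.56, adjusted p = 0.761). After WL the level was 523, 456 and 523 CPM in HC against 267, 553 and 360 CPM in CC_s (log2FC 0.35, SE 0.46). It was 356 and 653 CPM in HHC against 433 and 545 CPM in CCC (log2FC 0.04, SE 0.56). All neighbouring groups in the order of mean *Igf1*, from H (341 CPM) up to CC_l (577 CPM), overlapped. The genes of most like pattern, *Fastkd1*, *Dennd2a* and *Orc3*, followed it only loosely (r = 0.74, 0.72 and 0.70).

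*Igf1r* was low throughout, from 1.07 CPM (C replicate 3) to 11 CPM (CCC replicate 2). It was 5.99, 6.25 and 1.07 CPM in C and 7.26, 6.63 and 5.42 CPM in H (log2FC 0.54, SE 0.72, adjusted p = 0.742). It was 3.54 and 4.58 CPM in CC_l and 6.89 and 4.81 CPM in HH, where both HH mice were above both controls (log2FC 0.53, SE 0.88, adjusted p = 0.796). In HC it was 3.81, 5.78 and 9.77 CPM, above all CC_s mice at 1.85, 3.11 and 3.17 CPM, with a log2FC of 1.25 (SE 0.73, adjusted p = 0.622) that did not pass the test. In HHC it was 2.35 and 1.08 CPM against 1.19 and 11 CPM in CCC, and the log2FC of −1.84 (SE 0.91, adjusted p = 0.487) turned to 0.50 without the 1 high control, CCC replicate 2. *Os9*, *Spns1* and *Pcdhb19* had the most like pattern (r = 0.95, 0.93 and 0.90).

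The binding proteins held all members that passed the rule for differentially expressed genes (DEGs), a nominal p under 0.01 and an absolute log2FC of at least 1. In H, 1 of 9 members was called (*Igfbp7*, higher), where the rule called 6.49% of all genes tested. In HH, 3 of 9 were called (*Igfbp3*, *Igfbp6* and *Igfbp7*, higher), against 6.79% of all genes. After WL, 0 of 9 were called in HC by edgeR, against 1.74% of all genes (0 at a nominal p under 0.05, and 0 by DESeq2), and 1 of 9 in HHC (*Igfbp2*, lower), against 3.12%. At an adjusted p under 0.05 by edgeR, *Igfbp7* passed in H (2.12% of all genes), and 0 of 9 members passed in HH (2.07% of all genes), where 3 had a nominal p under 0.05 and DESeq2 passed 3. In HC and HHC, 0 of 9 members and 0% of all genes passed by edgeR, and DESeq2 passed 0 of 9 in each, while 0 members in HC and 2 in HHC had a nominal p under 0.05. Without the 4 mice with sperm or epididymal markers, 1 of 9 was called in H, 0 in HC, 1 in HH (*Igfbp6*) and 0 in HHC. Groups did not overlap for 3 of 9 members in H, 2 of 9 in HC, 6 of 9 in HH and 4 of 9 in HHC, where 23.9%, 13.8%, 55.3% and 28.8% of all genes did not overlap.

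**Figure D2:**
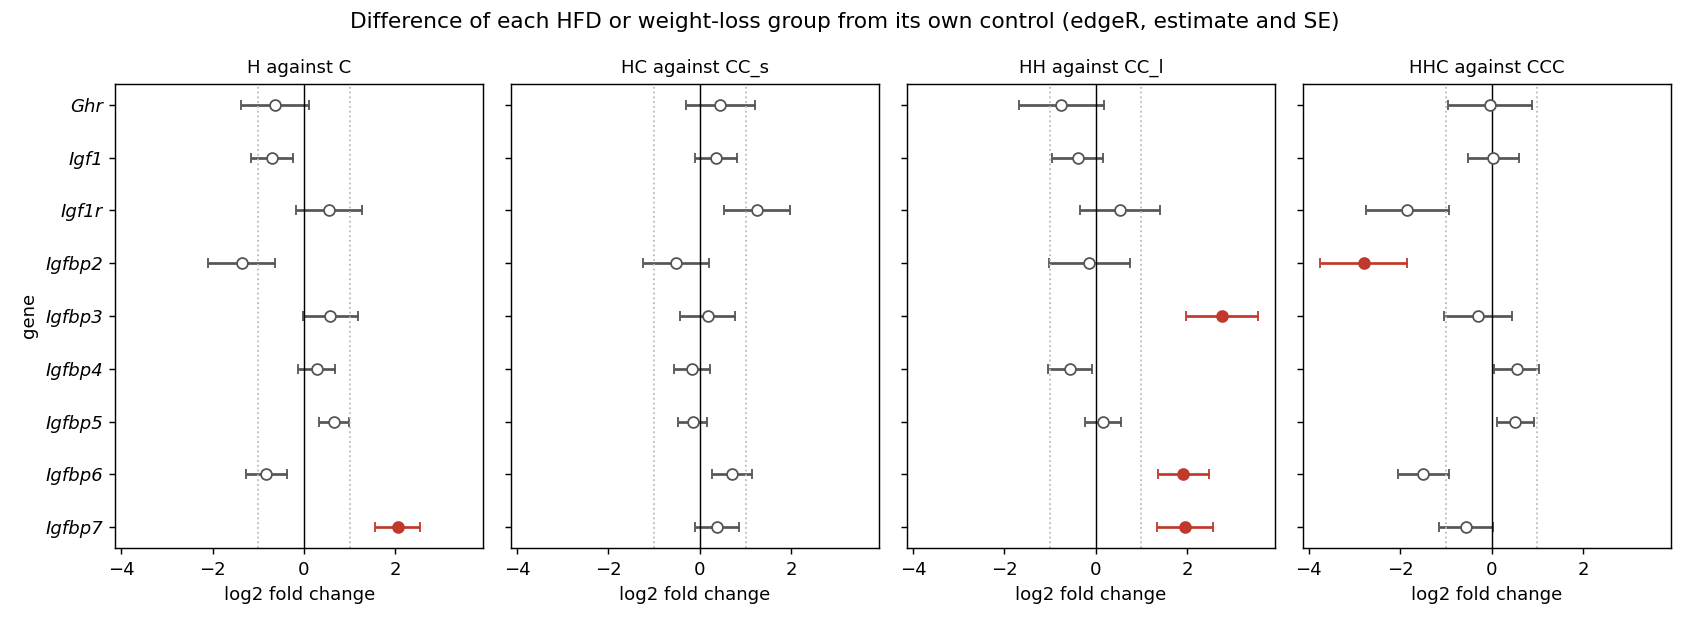
Log2 fold change of each member in the HFD and WL groups against the control of the same arm and age (points, edgeR estimate, with the SE as bars). Filled red points passed the DEG rule, and dotted lines mark a log2 fold change of 1 in either direction. *Igfbp7* stands at 2.05 in H and 1.96 in HH, and at 0.37 in HC and −0.55 in HHC.

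*Igfbp7* was called higher in both obese groups and, in H, also passed at an adjusted p under 0.05. Its level was 69.2, 48.7 and 55.3 CPM in C and 170, 360 and 187 CPM in H, and 57.0 and 68.6 CPM in CC_l and 228 and 260 CPM in HH. Every obese mouse was thus above every lean mouse of the study. The difference was 4.14-fold in H (239 ± 105 against 57.7 ± 10.5 CPM, mean ± SD, n = 3; log2FC 2.05, SE 0.50, adjusted p = 0.0416) and 3.89-fold in HH (244 ± 22.7 against 62.8 ± 8.18 CPM, n = 2; log2FC 1.96, SE 0.61, adjusted p = 0.106). The effects in H and HH differed by 0.09 (SE 0.76, adjusted p = 1.00). The DEG call in H held without any 1 mouse (log2FC 1.63 to 2.25) and without the 4 mice with sperm or epididymal markers (log2FC 1.83), but the adjusted p was then 0.0577 to 0.225 without any 1 of the 6 mice compared and 0.293 without those 4. The call in HH was lost without those 4 mice (log2FC 1.92, SE 0.79) and without CC_l replicate 1 (log2FC 1.84, SE 0.81), CC_l replicate 2 (log2FC 2.13, SE 0.82) or HH replicate 2 (log2FC 1.88, SE 0.71).

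After WL, *Igfbp7* was 43.5, 56.3 and 57.1 CPM in HC against 40.6, 42.1 and 38.6 CPM in CC_s. HC mice were still above all their controls, but by 1.29-fold (log2FC 0.37, SE 0.48, adjusted p = 0.857). In the long arm it was 18.3 and 124 CPM in HHC and 82.0 and 127 CPM in CCC, so the 2 HHC mice lay below and within the control range (log2FC −0.55, SE 0.59, adjusted p = 0.775). Without HHC replicate 2 the gene was called lower (log2FC −2.52, SE 0.57), and without HHC replicate 1 the log2FC was 0.24. The effect in H exceeded that in HC by 1.68 (SE 0.68, adjusted p = 0.357), and the effect in HH exceeded that in HHC by 2.51 (SE 0.84, adjusted p = 0.158), neither past the adjusted threshold.

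*Igfbp3*, the main carrier of IGFs in the circulation, was called in HH and not in H. It was 36.3, 35.7 and 14.8 CPM in C and 37.0, 39.3 and 53.7 CPM in H. All H mice were above all C mice, but the log2FC of 0.58 (SE 0.60, adjusted p = 0.656) did not pass. It was 7.26 and 4.45 CPM in CC_l and 57.1 and 22.3 CPM in HH, a 6.75-fold difference (log2FC 2.76, SE 0.79, adjusted p = 0.0783). The effects in H and HH differed by −2.17 (SE 0.96, adjusted p = 0.848). CC_l had the lowest mean of all 8 groups (5.86 CPM), overlapping HHC, so the HH value is set against low controls. The call was lost without CC_l replicate 2 (log2FC 2.48, SE 1.02), without HH replicate 1 (log2FC 1.95, SE 0.85) and without the 4 mice with sperm or epididymal markers (log2FC 3.23, SE 1.11). After WL it was 10.2, 25.2 and 32.3 CPM in HC against 36.4, 7.95 and 15.7 CPM in CC_s (log2FC 0.17, SE 0.60), and 5.03 and 15.1 CPM in HHC against 6.69 and 18.1 CPM in CCC (log2FC −0.30, SE 0.74).

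*Igfbp6*, which prefers IGF2 to IGF1, was called higher in HH and not in H. It was 187, 114 and 77.5 CPM in C and 64.9, 84.3 and 64.8 CPM in H (log2FC −0.82, SE 0.45, adjusted p = 0.361). In the long arm it was 54.2 and 34.8 CPM in CC_l and 164 and 173 CPM in HH, a 3.79-fold difference (log2FC 1.92, SE 0.56, adjusted p = 0.0855). That call was lost without CC_l replicate 2 (log2FC 1.67, SE 0.73) or HH replicate 2 (log2FC 1.90, SE 0.66) and held without the 4 mice with sperm or epididymal markers (log2FC 2.36, SE 0.68). CC_l had the lowest mean of all 8 groups (44.5 CPM), so the HH value is set against low controls. Both HH mice lay below the highest lean mouse of the study (CCC replicate 2, 230 CPM). The effects in H and HH differed by −2.75 (SE 0.71), with an adjusted p of 0.848, and no gene of the table passed that test at an adjusted p under 0.05 (0%).

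After WL *Igfbp6* was 65.6, 88.2 and 163 CPM in HC against 80.2, 50.4 and 65.2 CPM in CC_s (log2FC 0.70, SE 0.44, adjusted p = 0.649). It was 38.0 and 73.3 CPM in HHC, below both CCC mice at 84.2 and 230 CPM (log2FC −1.49, SE 0.55, adjusted p = 0.350), and was called lower there without CCC replicate 1 (log2FC −2.05, SE 0.58). When single mice of these groups were left out, the log2FC in HHC ran from −2.05 to −0.60, so its size depended on single mice. Both HH mice thus lay above their controls and both HHC mice below theirs. The difference of these effects, 3.42 (SE 0.79), had an adjusted p of 0.0525, in a test that 0.815% of all genes passed at an adjusted p under 0.05.

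*Igfbp2*, a binding protein that adipocyte precursors secrete, was low, with a median of 6.30 CPM. It was 28.2, 17.2 and 7.07 CPM in C and 11.2, 5.00 and 4.22 CPM in H (log2FC −1.36, SE 0.73, adjusted p = 0.360), and the groups overlapped. It was 7.01 and 4.45 CPM in CC_l and 3.65 and 6.81 CPM in HH (log2FC −0.14, SE 0.89). After WL it was 3.78, 5.78 and 7.44 CPM in HC against 8.74, 2.29 and 13.4 CPM in CC_s (log2FC −0.52, SE 0.73). In HHC it was 0.838 and 2.15 CPM, below the 2.63 and 18.4 CPM of CCC, and was called 6.94-fold lower (log2FC −2.80, SE 0.96, adjusted p = 0.318). Without the high control, CCC replicate 2, the log2FC was −0.80 (SE 0.97). The call was also lost without HHC replicate 1 (log2FC −2.29, SE 1.21) or HHC replicate 2 (log2FC −3.64, SE 1.34), and in 9 of 13 alternatives in all. CCC replicate 2 and C replicate 1, the mice with the most *Igfbp2*, also had the highest summed mesothelial markers (378 and 309 CPM, against 37.4 to 145 CPM in the other 18), and *Msln*, the mesothelial marker mesothelin, was the gene of most like pattern (r = 0.83). Of 7 mesothelial markers, 2 were called lower in H (all genes, 6.49%) and 2 in HHC (all genes, 3.12%). None of these markers was at 0 in any library, and their part in the result was not tested.

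*Igfbp4* and *Igfbp5*, the members that varied least over the 20 mice, were not called in any comparison. *Igfbp4*, an inhibitory binding protein that proteases cleave to free IGF1, was 346, 333 and 671 CPM in C and 551, 463 and 623 CPM in H (log2FC 0.28, SE 0.40, adjusted p = 0.765). It was 628 and 743 CPM in CC_l, above both HH mice at 408 and 519 CPM (log2FC −0.56, SE 0.49, adjusted p = 0.572). After WL it was 763, 847 and 448 CPM in HC against 561, 876 and 872 CPM in CC_s (log2FC −0.17, SE 0.40). It was 670 and 827 CPM in HHC, above both CCC mice at 565 and 456 CPM (log2FC 0.55, SE 0.49, adjusted p = 0.721). Over all 20 mice it spanned 2.63-fold, and *Fgf10*, *Map2k4* and *Slc25a26* had the most like pattern (r = 0.94, 0.94 and 0.93).

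*Igfbp5*, which also binds the extracellular matrix, was 196, 176 and 204 CPM in C and 318, 258 and 334 CPM in H. All H mice were above all C mice, by 1.58-fold (log2FC 0.66, SE 0.32, adjusted p = 0.313). It was 137 and 217 CPM in CC_l and 210 and 187 CPM in HH (log2FC 0.16, SE 0.40). After WL it was 208, 234 and 297 CPM in HC against 349, 229 and 246 CPM in CC_s (log2FC −0.16, SE 0.32). It was 255 and 190 CPM in HHC against 125 and 185 CPM in CCC, where the HHC mice were higher by 1.44-fold (log2FC 0.52, SE 0.40, adjusted p = 0.666). It spanned 2.79-fold over all mice, and its most like genes were *Map4k4*, *Map4* and *Tmcc3* (r = 0.83, 0.82 and 0.81).

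The make-up of the binding protein transcripts followed from these levels. Each gene's share was taken of the summed CPM per kb of *Igfbp2* to *Igfbp7*, as a description with no test. *Igfbp7* made up a mean of 15.2% of this sum in C (14.7% to 15.7%) and 42.4% in H (35.7% to 55.5%), and 18.4% in CC_l and 39.8% in HH. The share of *Igfbp4* varied between control groups, at 32.9% in C, 53.7% in CC_s, 55.0% in CC_l and 32.8% in CCC. It was 28.0% in H, 45.5% in HC, 20.6% in HH and 54.7% in HHC. *Igfbp6* stood at 35.7% in C and 14.2% in H, but at 14.4% in CC_l and 29.9% in HH. After WL, *Igfbp7* made up 12.5% in HC (11.7% to 13.1%) and 10.4% in CC_s (9.36% to 10.9%). It made up 16.1% in HHC (6.15% and 26.1%) and 22.8% in CCC. The sum itself was 268 to 364 CPM per kb in C, 395 to 536 in H, 267 and 296 in CC_l and 484 and 531 in HH, so it was larger in every obese mouse than in its controls.

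**Figure D3:**
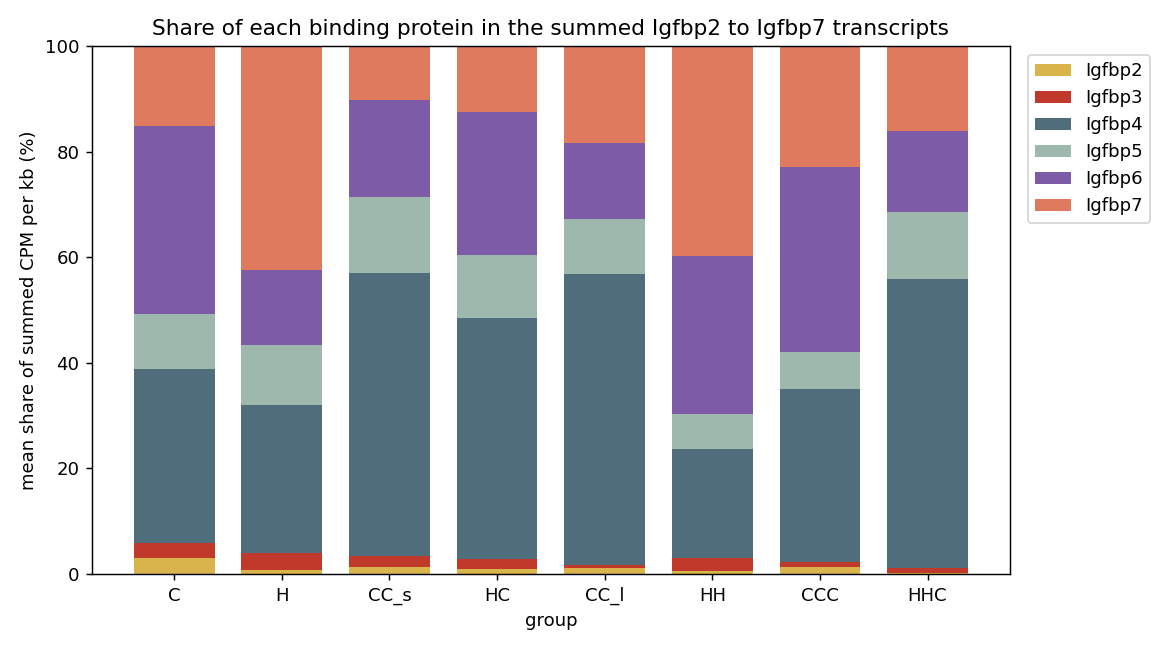
Mean share of each binding protein gene, in percent, of the summed CPM per kb of *Igfbp2* to *Igfbp7* in each group (stacked bars, 3 mice per group in the 4 groups at the left and 2 in those at the right). The share of *Igfbp7* is 42.4% in H and 39.8% in HH, and between 10.4% and 22.8% in the other groups.

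Markers of other cell types were called higher in HH, where *Igfbp3*, *Igfbp6* and *Igfbp7* were called, and in H, where *Igfbp7* was called and *Igfbp6* had a log2FC of −0.82. The DEG rule called 6.49% of all genes in H, 1.74% in HC, 6.79% in HH and 3.12% in HHC, in either direction. Of 12 adipocyte progenitor and fibroblast markers, 5 were called higher in H, 1 in HC, 9 in HH and 0 in HHC. Their summed level was 984 to 2275 CPM in C, 2069 to 8561 in H, 708 and 1226 in CC_l and 7127 and 10340 in HH. In HC it was 1327 to 2782 CPM, above the 1010 to 1189 CPM of CC_s. In HHC it was 1085 and 1692 CPM, below the 2279 and 3657 CPM of CCC (median log2FC of the 12 markers −1.35). Of 9 endothelial markers, 5 were called higher in H, 0 in HC and 8 in HH, and 3 were called lower in HHC. Their summed level was 318 to 821 CPM in C, 1574 to 2129 in H, 198 and 234 in CC_l, 939 and 1892 in HH, 329 and 710 in CCC and 97.5 and 145 in HHC. Of 8 pericyte and smooth muscle markers, 2 were called higher in H, 0 in HC and 5 in HH, and 1 was called lower in HHC. No marker of these 3 lists was at 0 in any library, and their part in the results was not tested.

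By pattern over the 20 libraries, *Igfbp7* was most like *Plpp1* (r = 0.93) and the fibrillar collagen genes *Col5a2* and *Col3a1* (r = 0.92 each). *Col3a1* was 136 to 263 CPM in C, 376 to 3047 in H, 125 and 285 in CC_l and 1767 and 2602 in HH. *Igfbp6* was most like *Fbln1*, which encodes the matrix protein fibulin-1 (r = 0.93), *Efemp1*, another fibulin (r = 0.86), and *Gdf10* (r = 0.86). *Igfbp3* was most like *Limch1* (r = 0.92), *Adgrf5* (r = 0.91) and *Lrch2* (r = 0.91). *Igfbp2* was, after *Msln*, most like *Opn1sw* and *Fdps* (r = 0.79 each). Among the members themselves, *Igfbp4* and *Igfbp6* had the most opposed patterns (r = −0.71).

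**Figure D4:**
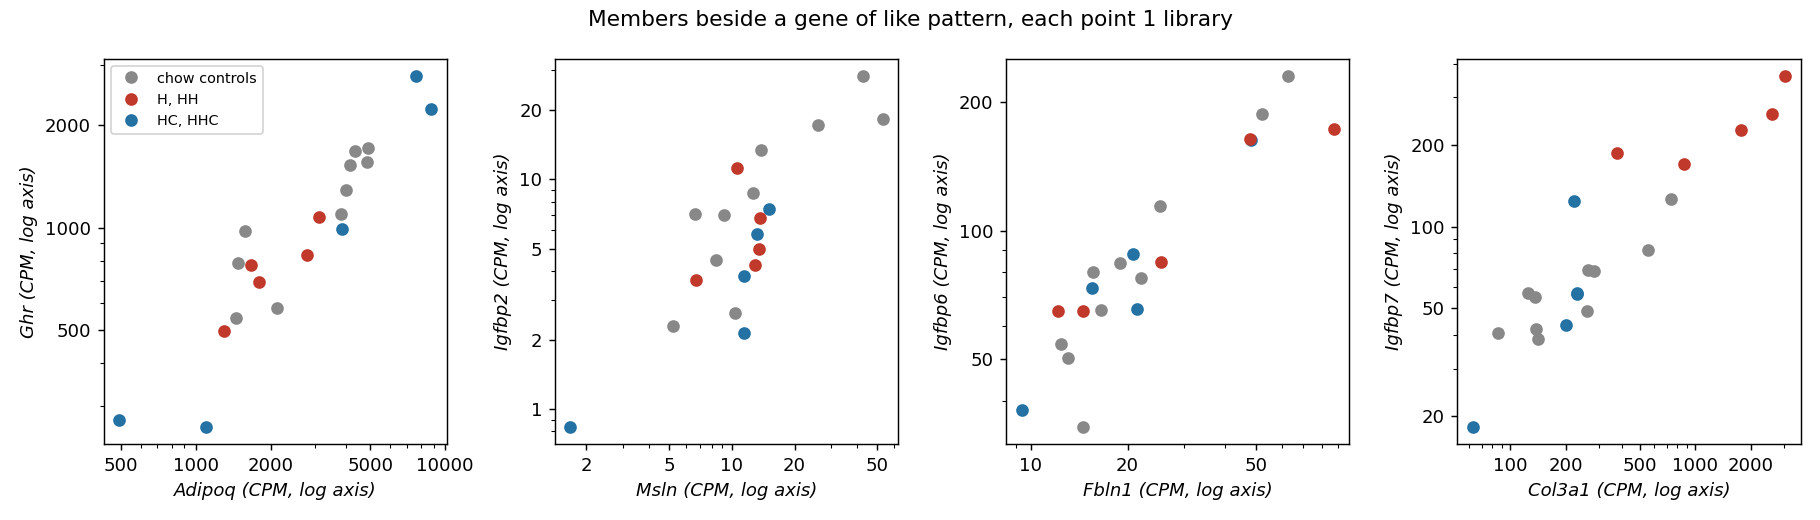
*Ghr*, *Igfbp2*, *Igfbp6* and *Igfbp7* (vertical axis, CPM) against a gene of like pattern (horizontal axis, CPM), on log axes, with 1 point per library. Grey marks lean controls, red H and HH, and blue HC and HHC. *Ghr* rises with *Adipoq* from HC replicate 3 at 493 CPM of *Adipoq* to HHC replicate 2 at 8796 CPM.

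The RefSeq promoter windows of *Igfbp3*, *Igfbp6* and *Igfbp7* are shown because these 3 members were called higher together in HH. Each runs from 250 bases before to 50 after the RefSeq start (GRCm38.p6, 5′ to 3′). GGGCGG, the GC box bound by Sp1, is in capitals on either strand.
Igfbp3, chr11:7213874-7214173, minus strand: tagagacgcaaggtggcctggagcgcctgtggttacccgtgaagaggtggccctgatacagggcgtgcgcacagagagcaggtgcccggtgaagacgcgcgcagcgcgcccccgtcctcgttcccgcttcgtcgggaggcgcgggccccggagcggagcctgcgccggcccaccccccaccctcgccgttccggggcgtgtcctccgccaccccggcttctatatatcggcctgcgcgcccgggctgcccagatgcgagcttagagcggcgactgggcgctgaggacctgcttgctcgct
Igfbp6, chr15:102143936-102144235, plus strand: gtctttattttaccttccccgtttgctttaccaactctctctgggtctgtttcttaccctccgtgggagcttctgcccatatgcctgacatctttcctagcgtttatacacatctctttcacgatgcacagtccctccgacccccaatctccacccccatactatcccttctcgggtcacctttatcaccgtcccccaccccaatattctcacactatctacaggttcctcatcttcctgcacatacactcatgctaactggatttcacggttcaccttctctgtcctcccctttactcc
Igfbp7, chr5:77407996-77408295, minus strand: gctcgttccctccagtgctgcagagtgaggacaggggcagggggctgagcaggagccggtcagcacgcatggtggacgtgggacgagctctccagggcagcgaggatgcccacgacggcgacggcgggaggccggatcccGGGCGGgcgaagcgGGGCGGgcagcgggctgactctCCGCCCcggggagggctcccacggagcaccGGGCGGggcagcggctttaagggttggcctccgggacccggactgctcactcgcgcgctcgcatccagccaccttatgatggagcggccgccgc

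The window of *Igfbp7* holds 4 GC boxes and is 73.3% G and C, and that of *Igfbp3* holds 0 at 71.7% G and C. The window of *Igfbp6* holds 0 at 49.7% G and C, and it ends before the GENCODE start of that gene given above. Of all 32851 windows, 35.7% hold at least 1 GC box. A match is a description of the letters and not a binding site.

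The other genes of the pathway were 43 genes of GH and IGF signalling, of which 42 were tested (*Igfbpl1* was not). In H, 1 was called higher and 3 lower, where the DEG rule called 6.49% of all genes, and in HH 4 higher and 3 lower, against 6.79%. In HC and HHC 0 were called, against 1.74% and 3.12%. The median log2FC of the list was 0.08 in H, −0.14 in HC, −0.19 in HH and −0.11 in HHC, beside −0.15, 0.27, −0.23 and −0.06 for all genes tested and 0.28, 0.35, 0.16 and −0.30 for the 9 members. Where edgeR called 0, 3 genes of the list in HC and 3 in HHC had a nominal p under 0.05, and DESeq2 called 0 in HC and 3 in HHC. Of the 11 GH signalling genes of the list, 2 were called lower in H (all genes, 6.49%), and 1 higher and 2 lower in HH (all genes, 6.79%).

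*Cish*, the STAT5-induced inhibitor of GH signalling, was called lower in both obese groups. It was 69.3, 137 and 38.1 CPM in C and 2.70, 2.56 and 4.42 CPM in H, a 25.3-fold lower level (log2FC −4.66, SE 0.81, adjusted p = 0.00801) that was called without any 1 of the 6 mice compared, with an adjusted p then between 0.00761 and 0.0636. It was 18.5 and 37.9 CPM in CC_l and 4.06 and 1.18 CPM in HH, a 10.7-fold lower level (log2FC −3.42, SE 0.94, adjusted p = 0.0679). That call was lost without CC_l replicate 2 or HH replicate 2 (log2FC −2.78 in each). After WL it was 54.5, 35.3 and 5.90 CPM in HC against 79.4, 205 and 41.9 CPM in CC_s (log2FC −1.77, SE 0.71, adjusted p = 0.544), and 13.4 and 10.7 CPM in HHC against 28.6 and 48.1 CPM in CCC (log2FC −1.67, SE 0.87, adjusted p = 0.519). Every HHC mouse was below every CCC mouse, but neither WL difference passed the test.

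The RefSeq promoter window of *Cish* is shown because the gene responds to STAT5, which binds TTCNNNGAA. Capitals mark that motif and the GC box GGGCGG on either strand.
Cish, chr9:107296409-107296708, plus strand: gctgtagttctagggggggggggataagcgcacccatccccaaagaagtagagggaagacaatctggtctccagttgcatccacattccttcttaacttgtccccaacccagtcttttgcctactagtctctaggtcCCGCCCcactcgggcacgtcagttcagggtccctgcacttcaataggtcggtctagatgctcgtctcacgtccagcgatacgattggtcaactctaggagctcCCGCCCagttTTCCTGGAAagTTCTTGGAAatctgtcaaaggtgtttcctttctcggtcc

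It holds 2 copies of TTCNNNGAA, which starts at offsets 0 and 11 from the annotated start. Of all windows, 8.3% hold the motif at least 1 time and 0.457% hold 2 or more copies. No window of the 9 members holds it, including both windows of *Ghr* and *Igfbp2*, which says only that these letters are not within these 300 bases.

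**Figure D5:**
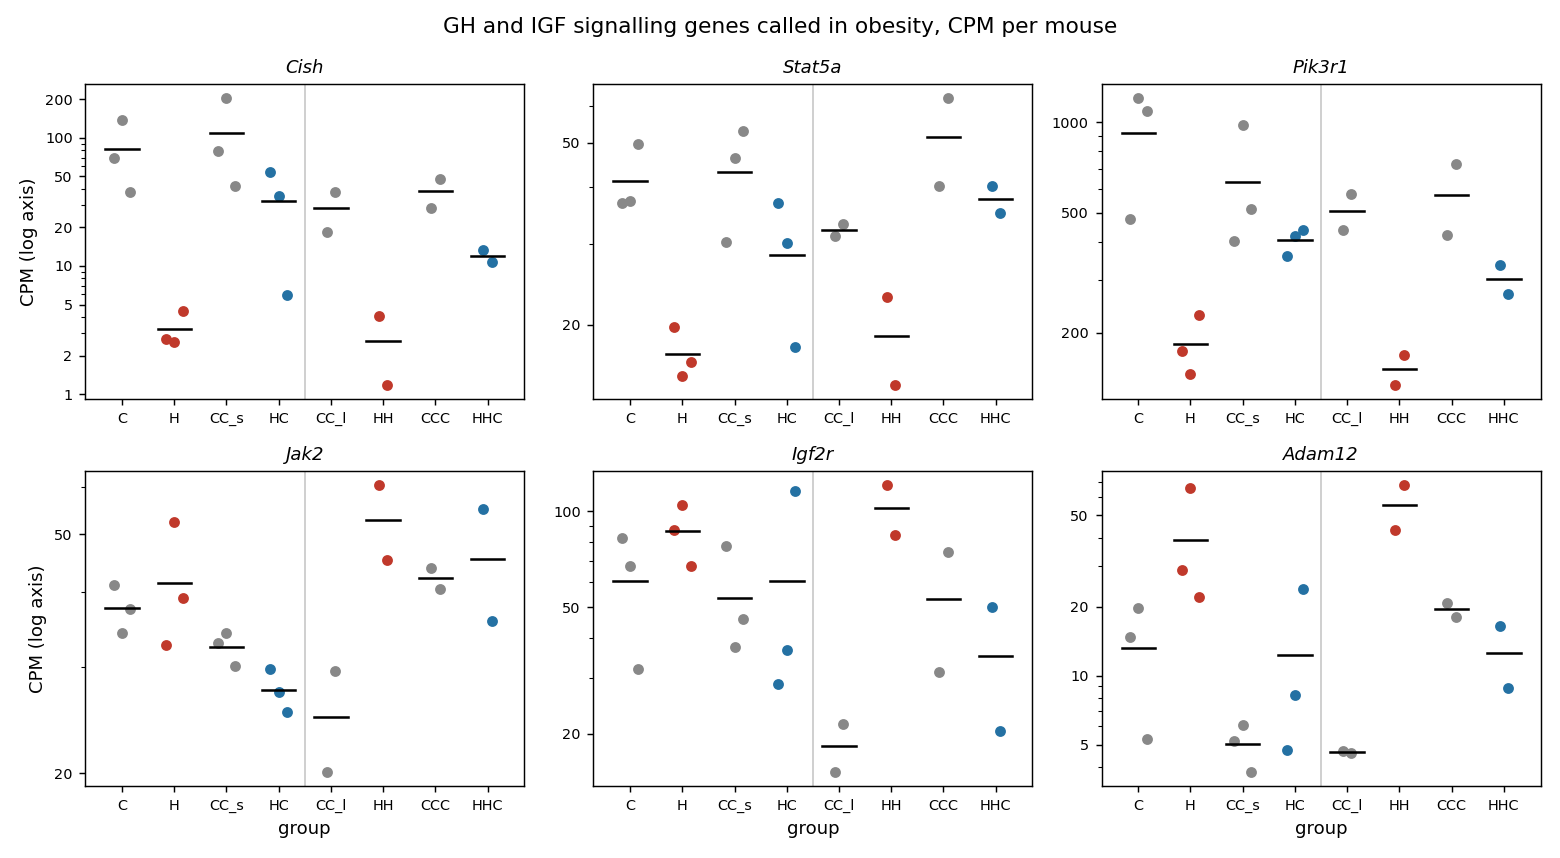
CPM of 6 GH and IGF signalling genes in each mouse (points) on a log axis, by group, with the group mean as a black bar and colours for lean (grey), HFD (red) and WL (blue). All 5 H and HH mice lie at or below 4.42 CPM of *Cish*, and all 10 lean mice at or above 18.5 CPM.

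*Stat5a*, 1 of the 2 STAT5 genes, was 37.0, 37.3 and 49.7 CPM in C and 19.8, 15.5 and 16.6 CPM in H, 2.39-fold lower (log2FC −1.25, SE 0.32, adjusted p = 0.0538). In HH it was 23.0 and 14.8 CPM against 31.3 and 33.3 CPM in CC_l (log2FC −0.77, SE 0.39, adjusted p = 0.319), not called. *Stat5b*, its paralogue, had log2FCs of −0.25 in H and 0.23 in HH, with groups that overlapped. *Jak2*, the kinase bound to the GH receptor, was 20.1 and 29.6 CPM in CC_l and 60.4 and 45.3 CPM in HH (log2FC 1.09, SE 0.33, adjusted p = 0.103), and its log2FC in H was 0.14. *Sh2b1*, an adaptor of JAK2, was 34.3 and 32.1 CPM in CC_l and 12.1 and 13.5 CPM in HH (log2FC −1.37, SE 0.47, adjusted p = 0.144). *Socs2*, the other feedback inhibitor, did not follow *Cish*: its log2FC was 0.41 in H and 0.80 in HH (adjusted p = 0.639 and 0.411). The call of *Jak2* was lost without CC_l replicate 1 (log2FC 0.84, SE 0.45) or HH replicate 1 (log2FC 0.88, SE 0.43), and that of *Sh2b1* without any 1 of the 4 mice compared (log2FC −1.43 to −1.28). Without the 4 mice with sperm or epididymal markers, the log2FC was 0.92 (SE 0.46) for *Jak2* and −1.23 (SE 0.52) for *Sh2b1*, and both calls were lost, as they were with the replicate number as a block and without the filter on low counts. In all, 6 of 13 alternatives lost the call of *Jak2* and 8 of 13 that of *Sh2b1*.

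Among receptors and their adaptors, *Pik3r1*, which encodes the regulatory p85 subunit of phosphoinositide 3-kinase, was lower in both obese groups. It was 476, 1204 and 1091 CPM in C and 174, 146 and 229 CPM in H, 5.05-fold lower (log2FC −2.34, SE 0.45, adjusted p = 0.0138), a call that held without any 1 of the 6 mice, with an adjusted p then between 0.0192 and 0.104. It was 437 and 578 CPM in CC_l and 134 and 168 CPM in HH, 3.36-fold lower (log2FC −1.75, SE 0.55, adjusted p = 0.109), a call lost without CC_l replicate 2 (log2FC −1.50), HH replicate 1 (log2FC −1.58) or HH replicate 2 (log2FC −1.90) and without the filter on low counts (log2FC −1.65). *Igf2r*, the receptor that takes up IGF2 for degradation, was 15.2 and 21.5 CPM in CC_l and 121 and 84.3 CPM in HH (log2FC 2.49, SE 0.69, adjusted p = 0.0684), a call lost without CC_l replicate 1 (log2FC 2.26) or HH replicate 1 (log2FC 2.22). The insulin receptor gene *Insr* was 226, 184 and 84.5 CPM in C and 58.0, 84.2 and 59.2 CPM in H, just short of the rule (log2FC −1.29, SE 0.45, adjusted p = 0.151). The adaptor genes *Irs1* and *Irs2* had log2FCs of −0.96 and 0.05 in H and −1.16 and −1.31 in HH and were not called. The second ligand, *Igf2*, stayed between 2.05 and 12.6 CPM and was not called in any comparison.

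Of 7 genes for IGFBP proteases and their inhibitors, 1 was called in H (all genes, 6.49%) and 1 in HH (all genes, 6.79%). *Adam12*, a metalloprotease that cleaves IGFBP3 and IGFBP5, was 4.70 and 4.58 CPM in CC_l and 43.2 and 67.9 CPM in HH, 12.0-fold higher (log2FC 3.58, SE 0.76, adjusted p = 0.0270), and the DEG call held without any 1 of the 4 mice compared (log2FC 3.24 to 3.89), although the adjusted p was then 0.0837 to 0.336, and 0.133 without the 4 mice with sperm or epididymal markers. It was 14.8, 19.7 and 5.28 CPM in C and 29.0, 65.7 and 22.1 CPM in H, above all C mice but not called. *Adam28* was called in H although its groups overlapped, at 23.8, 90.8 and 0 CPM against 0.218, 0.695 and 0 CPM in C. The call (log2FC 6.96, SE 2.24, adjusted p = 0.138) was lost without H replicate 1 or 2 or any 1 C mouse (log2FC 5.27 to 8.45). It was also lost by DESeq2 (log2FC 6.81, SE 5.28), with RLE normalization (log2FC 6.82, SE 2.28) and without the 4 mice with sperm or epididymal markers (log2FC 5.07, SE 2.51). The summed epididymal markers were 400, 1222 and 138 CPM in H and 1819, 16.6 and 26.0 CPM in C, whose part in the result was not tested. *Htra1*, a serine protease that carries an IGFBP-like domain, was 57.8 and 91.4 CPM in CC_l and 290 and 250 CPM in HH (log2FC 1.86, SE 0.61, adjusted p = 0.126), a call lost without either CC_l mouse or either HH mouse (log2FC 1.57 to 2.25) and without the 4 mice with sperm or epididymal markers (log2FC 1.65, SE 0.74). *Pappa*, whose product cleaves IGFBP4, stayed at or below 4.90 CPM, and *Igfals*, the acid-labile subunit of the circulating complex, ran from 7.04 to 48.3 CPM, and neither was called.

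By edgeR at an adjusted p under 0.05, the effects of HFD and WL differed for 0 of 9 members in either arm, and the effects in the short and the long arm for 0 of 9. DESeq2 passed 1 member for HH and HHC (*Igfbp6*, adjusted p = 0.00699) and 0 for the other pairs. The differences of the H and HC effects and of the HC and HHC effects passed by edgeR for 0% of all genes each. A nominal p under 0.05 was reached by *Igfbp6* and *Igfbp7* for H and HC, by *Igfbp3*, *Igfbp6* and *Igfbp7* for HH and HHC, by *Igfbp3* and *Igfbp6* for H and HH, and by *Igf1r* and *Igfbp6* for HC and HHC. *Igfbp3* had a log2FC larger by 3.05 in HH than in HHC (SE 1.07, adjusted p = 0.178). *Igf1r* had a log2FC larger by 3.09 in HC than in HHC (SE 1.17, adjusted p = 0.373).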

How the data were processed

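Ribosome-bound mRNA of epiAT adipocytes from 20 mice in 8 groups was sequenced (template switching, oligo-dT priming, Tn5 tagmentation). Per the labels and the study's methods, the authors trimmed reads with Trim Galore 0.6.6, aligned them to mm10 with HISAT2 2.2.1, assigned them to genes with featureCounts (Subread 2.0.1) and deposited whole-number counts per gene without normalization. The annotation, strand setting and handling of read pairs are not given in the sources used here. Between 74.4% and 89.2% of the nonzero counts of a library were even, so halved counts were tried as an alternative. Symbols and positions came from GENCODE vM21 (98.2% of identifiers matched), and promoter windows from RefSeq (GRCm38.p6).

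From the counts, each comparison was fitted with edgeR 4.0.16 (R 4.3.3), using filterByExpr, TMM, and the quasi-likelihood test with all 20 libraries in 8 groups. Its standard errors are the absolute log2 fold change divided by the square root of the F statistic. A gene was a DEG at a nominal p under 0.01 with a log2 fold change of 1 or more in size, and Benjamini-Hochberg adjusted p-values cover all 21464 genes tested. Differences between effects were interaction contrasts, called at an adjusted p under 0.05. Totals of 10710277 to 36738954 counts set the precision, and limits of 3 counts cover counting error only. Each replicate is 1 mouse, and the counts of all replicate pairs differed by more than sampling noise. Named genes were the 9 members, the genes of the GH and IGF list that were called or lie at its core, and the 3 protein-coding genes with the highest Pearson r of log2 CPM (prior count 2) for each member. The members, the GH and IGF list and the marker lists were chosen with earlier results of these data known. Alternatives were the likelihood ratio test, DESeq2 1.42.0, RLE normalization, keeping all genes, fits on the compared groups alone, the replicate number as a block, halved counts, an adjusted p threshold and leaving out each mouse. A crossed block for the long arm, and leaving out 4 libraries with at least 100 CPM of summed spermatid or at least 1000 CPM of summed epididymal markers, were chosen after seeing the data. Scripts were tested on simulated data, and plots made with matplotlib 3.10.9 (Python 3.11.15).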

Additional observations from a re-analysis of the deposited data

Results flagged for a closer look

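For *Igfbp6*, both HH mice lay above both CC_l mice and both HHC mice below both CCC mice, and the effects differed by 3.42 on the log2 scale (SE 0.79, adjusted p = 0.0525, edgeR). Over the alternatives the difference ran from 2.54 to 3.99 and its adjusted p from 0.000954 to 0.333, the latter without CCC replicate 2. For *Igfbp4*, the effects ran the other way, with both HH mice below and both HHC mice above their controls. The *Igfbp4* effects differed by −1.12 (SE 0.69, adjusted p = 0.457, edgeR), which did not pass. With 2 mice per group, 55.3% of all genes did not overlap their controls in HH and 28.8% in HHC, in either direction. No group had enough mice to be searched for outlying samples.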

How the results depend on the processing

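Calls of members in H (1) and HC (0) were the same under all alternatives run, and the count for the HC and HHC effects and for the H and HC effects stayed at 0. The 3 members called in HH became 0 at an adjusted p threshold, 1 without the 4 libraries with sperm or epididymal markers, and 0 to 3 when single mice were left out (0 without CC_l replicate 2, 1 without HH replicate 2). The 1 member called in HHC became 0 with RLE normalization, with halved counts, with only the compared groups, at an adjusted p threshold and without those 4 libraries, 2 without a filter on low counts, and 0 to 3 when single mice were left out. Whether the replicate numbers pair the mice was not settled. Same-numbered deviations correlated at −0.28 to 0.19, but deviations from a mean of 2 or 3 mice are tied to each other and cannot decide it. With the replicate block 0 members were called in HHC, 1 in H, 0 in HC, 3 in HH and 10 pathway genes in all. With the numbers of HH and HHC crossed, the block called 3 members in HH, 0 in HHC and 9 pathway genes. Members whose HH and HHC effects differed (0) became 1 with DESeq2, 3 without a filter, 1 with the likelihood ratio test and 0 to 1 when single mice were left out, and those whose H and HH effects differed (0) became 1 without a filter. The 11 pathway calls became 20 without a filter, 3 at an adjusted p threshold and 6 to 15 when single mice were left out (7 without CC_l replicate 1, CC_l replicate 2 or HH replicate 2, and 6 without HH replicate 1).

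Of 824 refits of single differences, called or not, 28 changed sign, all of differences that were not called, and the cause was not tested. *Ghr* in HHC (−0.03) was 0.09 with DESeq2, 0.09 with RLE normalization, 0.03 without a filter, 0.10 with halved counts, 0.08 with only the compared groups and 0.09 without the 4 libraries. *Igf1* in HHC was −0.01 with the replicate block. Without the 4 libraries, *Igfbp3* in HC was −0.25, *Igfbp4* in HC 0.02, *Igfbp2* in HH 0.32 and *Igfbp5* in HH −0.04. When single mice of the compared groups were left out, log2 fold changes in HC ran from −0.64 to 0.93 for *Ghr*, −0.97 to 0.04 for *Igfbp2*, −0.21 to 0.93 for *Igfbp3*, −0.35 to 0.06 for *Igfbp4* and −0.32 to 0.05 for *Igfbp5*. In HH they ran from −0.63 to 0.27 for *Igfbp2* and −0.12 to 0.56 for *Igfbp5*. In HHC they ran from −0.46 to 0.41 for *Igf1*, −2.70 to 0.50 for *Igf1r*, −2.28 to 0.81 for *Ghr*, −1.30 to 0.59 for *Igfbp3* and −2.52 to 0.24 for *Igfbp7*. Where 1 mouse of a group was left, it was assumed to vary like the other groups. RLE normalization moved the median log2 fold change of all genes by −0.08 in H and 0.06 in HHC.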
